A study of Mus musculus with 2 samples.

Results

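Genes of dopamine and monoamine signalling were followed through the single-cell transcriptome of the mouse habenula. They are a list of 9 of the 28692 genes counted, chosen by name: the dopamine receptors Drd1, Drd2 and Drd4, the adrenoceptor Adra2a, the synthesis enzymes Ddc and Th, the vesicular transporter Slc18a2 and the monoamine oxidases Maoa and Maob. The habenula, a small relay of the epithalamus, is split into the medial (MHb) and the lateral habenula (LHb). The study made 2 droplet libraries, 1 for each group, each from pooled habenula punches of 4 adult male C57BL/6 mice of 50 to 55 days. Control mice came from the home cage. Shocked animals were given 30 foot shocks, each of 0.3 mA for 1 s, during 60 min, and had also spent 10 min a day for 7 days in the shock chamber beforehand, a step the labels give for them alone. Both groups were handled for 5 min a day over 7 days, carry no transgene or other allele in the labels, and were dissociated with pronase under blockers of transcription, translation and firing. Because each group is a single library of pooled animals, no difference between groups has a replicate check, no p-value is given, and each interval below is an exact 95% interval of counting error alone.

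Dopamine is made in a chain of steps. Tyrosine hydroxylase (Th) turns tyrosine into L-DOPA, aromatic L-amino acid decarboxylase (Ddc) turns L-DOPA into dopamine and 5-hydroxytryptophan into serotonin, and the vesicular monoamine transporter (Slc18a2) loads the product into synaptic vesicles. Monoamine oxidases A and B (Maoa and Maob) break monoamines down on the outer mitochondrial membrane. A cell with Ddc alone can decarboxylate aromatic amino acids, phenylalanine and tyrosine among them, to trace amines, and the brain cells of this kind are known as D-neurons. Drd1 couples to stimulatory G proteins, Drd2 and Drd4 couple to inhibitory ones, and Adra2a is an inhibitory receptor for noradrenaline. The LHb is known for its control of midbrain dopamine neurons, and it also receives fibres from them.

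The synthesis genes are shown first by their promoters. In the neurons named LHb-like below, Ddc was found in more cells than Th or Slc18a2, which were rare there with or without Ddc. A link between promoter letters and these levels was not tested. The windows below are from RefSeq (GRCm38.p6) and run from 250 bases before to 50 bases after an annotated start, 300 bases each, 5′ to 3′ on the gene's strand. Capitals mark the cAMP response element TGACGTCA, which reads the same on both strands.
Ddc, upstream start (chr11:11898095-11898394, minus strand): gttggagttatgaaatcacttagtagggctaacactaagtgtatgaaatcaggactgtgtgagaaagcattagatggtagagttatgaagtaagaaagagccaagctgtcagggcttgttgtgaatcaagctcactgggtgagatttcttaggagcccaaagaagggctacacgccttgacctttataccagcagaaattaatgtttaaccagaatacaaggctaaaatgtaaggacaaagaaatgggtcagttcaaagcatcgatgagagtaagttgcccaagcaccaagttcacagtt
Ddc, downstream start (chr11:11890359-11890658, minus strand): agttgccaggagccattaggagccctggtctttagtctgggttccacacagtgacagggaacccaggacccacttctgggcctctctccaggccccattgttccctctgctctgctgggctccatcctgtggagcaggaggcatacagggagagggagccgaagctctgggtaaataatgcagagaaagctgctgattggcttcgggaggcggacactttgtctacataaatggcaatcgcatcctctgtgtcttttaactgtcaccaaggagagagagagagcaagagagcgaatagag
Th (chr7:142899946-142900245, minus strand): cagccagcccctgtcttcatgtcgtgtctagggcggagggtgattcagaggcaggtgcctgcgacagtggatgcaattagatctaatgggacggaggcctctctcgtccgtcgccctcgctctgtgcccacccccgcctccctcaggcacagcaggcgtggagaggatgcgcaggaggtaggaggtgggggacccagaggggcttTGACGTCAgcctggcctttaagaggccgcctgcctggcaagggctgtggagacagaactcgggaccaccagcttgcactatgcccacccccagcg
Slc18a2 (chr19:59260628-59260927, plus strand): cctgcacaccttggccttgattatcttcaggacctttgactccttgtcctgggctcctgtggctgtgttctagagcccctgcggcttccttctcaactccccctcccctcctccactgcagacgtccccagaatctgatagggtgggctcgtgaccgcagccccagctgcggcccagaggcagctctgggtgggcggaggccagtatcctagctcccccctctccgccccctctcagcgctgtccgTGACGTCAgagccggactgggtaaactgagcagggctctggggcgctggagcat
The element begins 45 bases before the start of Th. In Slc18a2 it begins 4 bases before the start and runs across it. The element's letters occur in neither window of Ddc. It is found in 588 of 32851 mouse promoter windows of this length (1.79%). The GC box GGGCGG, searched on both strands and not overlapping the element, is found in 35.7% of all windows, in those of Th and Slc18a2, and in neither of Ddc. The 2 annotated Ddc starts are 7736 bases apart, and counts from the 3′ end of transcripts do not show which of them was used. A match is only a match of letters. Of the 9 genes, 8 have an entry in the promoter table.

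In mm10, with positions from GENCODE vM21, Ddc spans chr11:11814101-11898144 on the minus strand, Th chr7:142892752-142931128 on the minus strand and Slc18a2 chr19:59260896-59296012 on the plus strand. The oxidases are neighbours on the X chromosome with opposite strands, Maoa at chrX:16619698-16687818 (plus) and Maob at chrX:16709282-16817366 (minus). Among the receptor genes, Drd1 lies at chr13:54051183-54055705 (minus), Drd2 at chr9:49340627-49408177 (plus), Drd4 at chr7:141292006-141296464 (plus) and Adra2a at chr19:54044151-54048982 (plus).

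The libraries held 23095501 and 22189951 unique molecular identifiers (UMIs), where a UMI stands for 1 captured transcript, and 4880 control and 4771 foot shock cells were kept, with median depths of 2416.5 and 2698 UMIs. Clusters were named from marker genes, and 4554 and 4496 cells lay in a named class. LHb-like neurons (902 control and 797 foot shock cells) came from clusters that held at least 3 of Pcdh10, Gap43, Htr2c, Gpr151 and Pou4f1, and MHb-like neurons (1205 and 1616 cells) from clusters that held at least 3 of a list with Tac2, Chrnb3, Chrnb4 and Slc5a7. The foot shock library differed from control in holding 503 keratin-expressing epithelial cells where control held 0, and 32 cell barcodes occurred in both libraries. A subcluster of LHb-like neurons led by Cbln1 lay near the naming limit, with a mean Pou4f1 level of 1.16 times the limit. It held 29.2% of LHb-like cells in control and 15.6% in foot shock, so values of the class are also given without it. Levels are given as CPM, a gene's UMIs scaled to the summed UMIs of the cells, and are compared only within a gene.

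Dopamine receptor transcripts were sparse, and in LHb-like neurons those of the 3 listed receptors were nearly all Drd1. Drd2 had 0 UMIs in all 737280 barcodes of either library, which among named cells allows a share of cells with a UMI of up to 0.0659% in control and 0.0667% in foot shock. Drd4 had 6 and 21 UMIs over all barcodes. In named cells it had 2 UMIs in control, both in MHb-like neurons, and 18 in foot shock, of which 15 lay in 14 keratin epithelium-like cells, 2 in LHb-like and 1 in MHb-like neurons.

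Drd1, the stimulatory receptor, was found in LHb-like neurons, while no UMI was seen in MHb-like ones. LHb-like neurons held 43 Drd1 UMIs in control and 17 in foot shock, 10.9 CPM (7.88 to 14.7) and 5.72 CPM (3.33 to 9.17), in 3.99% and 2.01% of cells. MHb-like neurons held 0 UMIs in both libraries, which allows up to 0.249% and 0.186% of cells, at median depths (4229 and 3472 UMIs) close to those of LHb-like neurons (4352 and 3688). Free RNA, measured in barcodes with 10 to 100 UMIs, held Drd1 at 1.94 and 1.04 CPM. Neurons outside the habenula classes, called other neurons, held 13 and 4 UMIs (8.79 and 4.4 CPM), and thalamus-like neurons 4 and 2 (5.18 and 7.55 CPM). GABAergic-like neurons, with only 22 and 34 cells, held 5 and 1 UMIs, 50.9 CPM (16.5 to 118.7) and 9.69 CPM (0.245 to 54.0). In control their level was above the LHb-like one. Astrocyte-like, oligodendrocyte-like, oligodendrocyte precursor-like and microglia-like cells held 0 in both libraries, and committed precursor-like and endothelial-like cells at most 2. Mural-like cells of the vessel wall held 2 UMIs in 1 of 54 control cells and 5 UMIs in 5 of 61 foot shock cells, 24.7 CPM (2.99 to 89.1) and 60.9 CPM (19.8 to 142), which in foot shock was above the LHb-like level.

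Within the LHb-like class most Drd1 UMIs lay in 2 of 9 subclusters. The Cbln1-led subcluster held 35 of the 43 control UMIs and 7 of the 17 foot shock UMIs, at 33.4 CPM (23.3 to 46.4) and 17.3 CPM (6.97 to 35.7). The subcluster led by A230065H16Rik, Gng4 and Fam19a2, called Gng4-led below, held 7 UMIs in each library, 15.3 and 21.7 CPM. The other 7 subclusters together held 1 and 3 UMIs. Drd5, the other receptor of the stimulatory pair, had 23 and 10 UMIs in LHb-like neurons and the Cbln1-led subcluster held 20 and 7 of them. That subcluster also held 158 of 196 and 101 of 131 UMIs of Gad2, a GABA synthesis gene, while Gad1 was at 0 in the class in both libraries, and it had little Gpr151 (7.63 and 9.90 CPM, against 235 and 405 CPM in the whole class). Most control Drd1 UMIs of the class thus came from the subcluster nearest the naming limit, and how many of its cells belong to the LHb proper was not tested.

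Adra2a lowers cyclic AMP on binding noradrenaline. Among classes with at least 50 cells in a library it was highest in astrocyte-like cells, and it was lower in neurons outside the MHb. Of the smaller classes, GABAergic-like neurons (22 and 34 cells) held 2 and 4 UMIs, 20.4 CPM (2.47 to 73.5) and 38.8 CPM (10.6 to 99.3). These intervals overlapped those of astrocyte-like cells. Fibroblast-like cells held 2 UMIs in 2 of 17 control cells. Astrocyte-like cells held 55 and 10 UMIs, 74.1 CPM (55.8 to 96.4) in control and 39.9 CPM (19.2 to 73.5) in foot shock, in 8.62% and 6.14% of cells. LHb-like neurons held 26 and 17 UMIs, 6.58 and 5.72 CPM, and other neurons 11 and 8 (7.43 and 8.80 CPM). Free RNA held it at 2.50 and 4.41 CPM, so that the foot shock intervals of LHb-like neurons (3.33 to 9.17) and of free RNA (2.57 to 7.06) overlapped. MHb-like neurons held 0 UMIs in both libraries. In the LHb-like class the subcluster led by Peg10, Wif1 and Gchfr held 14 of 26 and 12 of 17 UMIs, at 24.5 CPM (13.4 to 41.1) and 24.9 CPM (12.9 to 43.5), and the subcluster led by Cxcl13 and Ret held 4 and 5. The Cbln1-led subcluster, highest for Drd1 in control, held 1 and 0 Adra2a UMIs. The separation was not complete: the Gng4-led held 3 and 0 Adra2a UMIs, and the Peg10-led held 0 and 2 Drd1 UMIs.

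**Figure D1:**
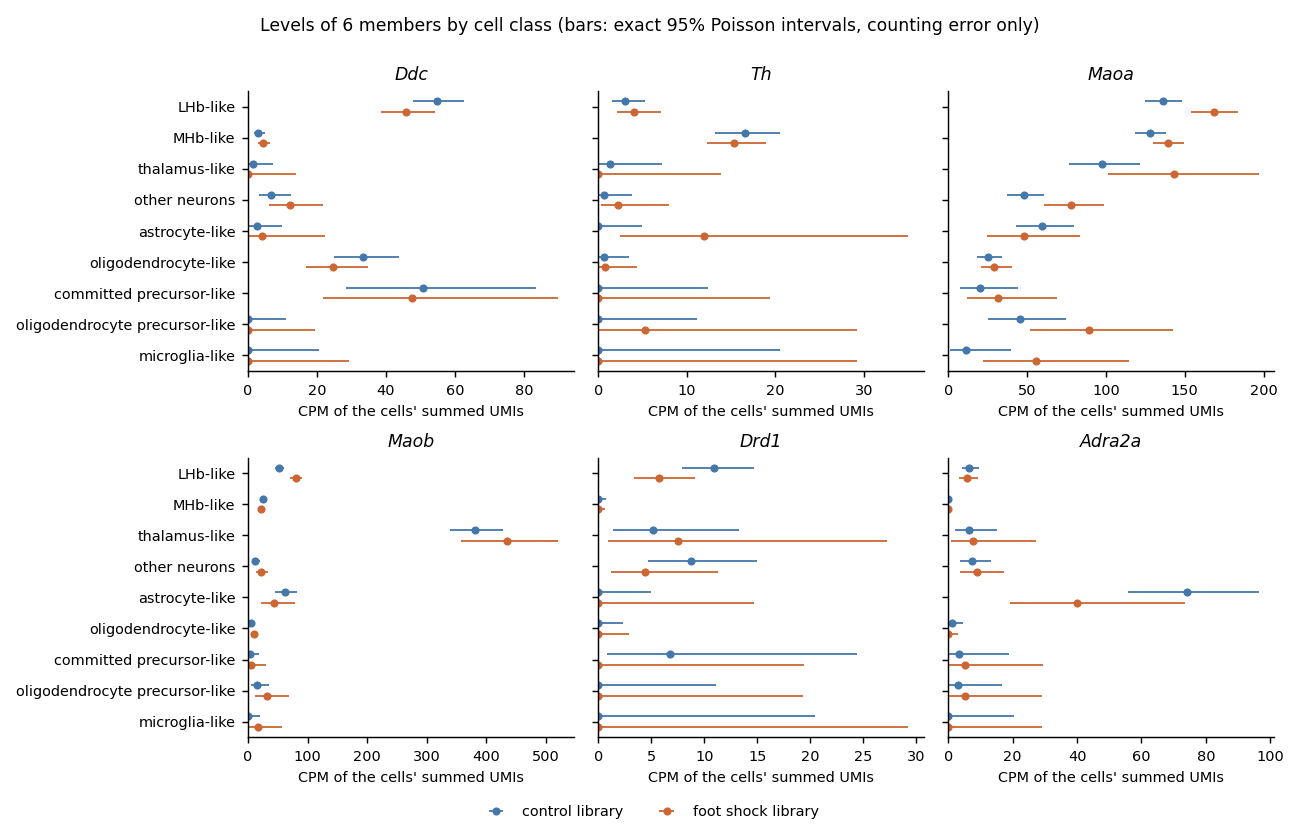
Levels of 6 of the 9 genes in 9 cell classes, as CPM of the cells' summed UMIs on a linear axis that starts at 0, with control in blue and foot shock in orange and bars for exact 95% Poisson intervals. Ddc stands at 54.9 CPM in LHb-like neurons of control and 33.4 CPM in oligodendrocyte-like cells, and among the classes shown Th is highest in MHb-like neurons, Maob in thalamus-like neurons, and Adra2a in astrocyte-like cells, where control stands at 74.1 CPM.

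Ddc was the most widely found gene of the synthesis chain in LHb-like neurons. It had 217 UMIs in 159 of 902 control cells, a share of 17.6% (15.2 to 20.3%), and 136 UMIs in 102 of 797 foot shock cells, a share of 12.8% (10.6 to 15.3%). The levels were 54.9 CPM (47.9 to 62.7) and 45.8 CPM (38.4 to 54.2), and free RNA held Ddc at 10.3 and 10.9 CPM. Control cells were deeper, and with each cell thinned to 1000 UMIs the shares were 4.87% and 4.59%. The gap was wider at the other depth settings given in the closing section. The ratio of foot shock to control CPM, which is scaled to summed UMIs, was 0.834 (0.668 to 1.04). How far depth accounts for the difference between the unthinned shares was not tested. In astrocyte-like cells, at a median depth of 1184.5 and 1208 UMIs, 0.345% and 0.614% of cells had a Ddc UMI, and thinned shares there were 0.172% and 0.238%. In oligodendrocyte-like cells 6.67% and 4.51% of cells had a UMI, and thinned shares were 3.45% and 2.53%. MHb-like neurons held 15 and 24 UMIs, 2.99 and 4.28 CPM, below the free RNA level.

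Outside neurons Ddc was found along the oligodendrocyte lineage and in vessels. Oligodendrocyte-like cells held 53 and 31 UMIs, 33.4 CPM (25.0 to 43.7) and 24.6 CPM (16.7 to 34.9), above free RNA in both libraries. A further cluster led by Anln, Hapln2 and Pmp22 held 6 oligodendrocyte markers but was left out of the class by the naming rule, and it made up 480 of the unnamed cells, whose Ddc level was 33.4 CPM (21.8 to 48.9) and 32.3 CPM (18.4 to 52.4). Committed precursor-like cells, the stage between precursor and myelinating cell, held 15 and 9 UMIs, 50.6 and 47.4 CPM. Oligodendrocyte precursor-like cells held 0 UMIs in 245 control and 108 foot shock cells, which allows up to 1.22% and 2.78% of cells. Endothelial-like cells held 10 and 5 UMIs, 63.8 CPM (30.6 to 117) and 45.2 CPM (14.7 to 106), in 14.1% and 8.70% of cells. Mural-like and microglia-like cells held 0, with upper bounds of 45.5 and 44.95 CPM for mural-like and 20.5 and 29.25 CPM for microglia-like cells. Except for microglia-like cells in control, these bounds reached into the endothelial-like intervals. The oligodendrocyte precursor-like zero next to the committed precursor-like level was seen in both libraries.

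The Gng4-led subcluster carried the highest Ddc level of the 9 LHb-like subclusters. It held 103 control and 75 foot shock cells, 11.4% and 9.41% of the class, with 53 of 159 and 35 of 102 of its Ddc-positive cells. The level there was 173 CPM (137 to 216) in control and 168 CPM (126 to 219) in foot shock, and 51.5% and 46.7% of its cells had a Ddc UMI. Thinned to 1000 UMIs, the shares were 16.0% and 16.2%, over 3 times those of the whole class. Ddc was not a feature of the clustering, and it still came out as the gene with the highest fold in that subcluster. The subclusters led by Cxcl13 (63.5 and 32.3 CPM) and Clasp2 (62.5 and 66.9 CPM) were lower. Their intervals overlapped each other in each library, so no order between them can be read. The Peg10-led (33.2 and 22.8 CPM), Sst-led (22.9 and 23.1 CPM) and Cbln1-led (20.0 and 12.4 CPM) subclusters were the lowest of those with a Ddc UMI in both libraries. The Sv2c-led had 42.7 and 37.3 CPM, and the small Syt15-led 0 and 4 UMIs. Gng4-led cells held the LHb-like markers Pcdh10 (764 and 776 CPM) and Gap43 (1414 and 1581 CPM), and levels of Htr2c and Pou4f1 there are not given. Gpr151 was at 1 and 0 UMIs, low as in the Cbln1-led subcluster. How many Gng4-led cells belong to the LHb proper was likewise not tested.

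**Figure D2:**
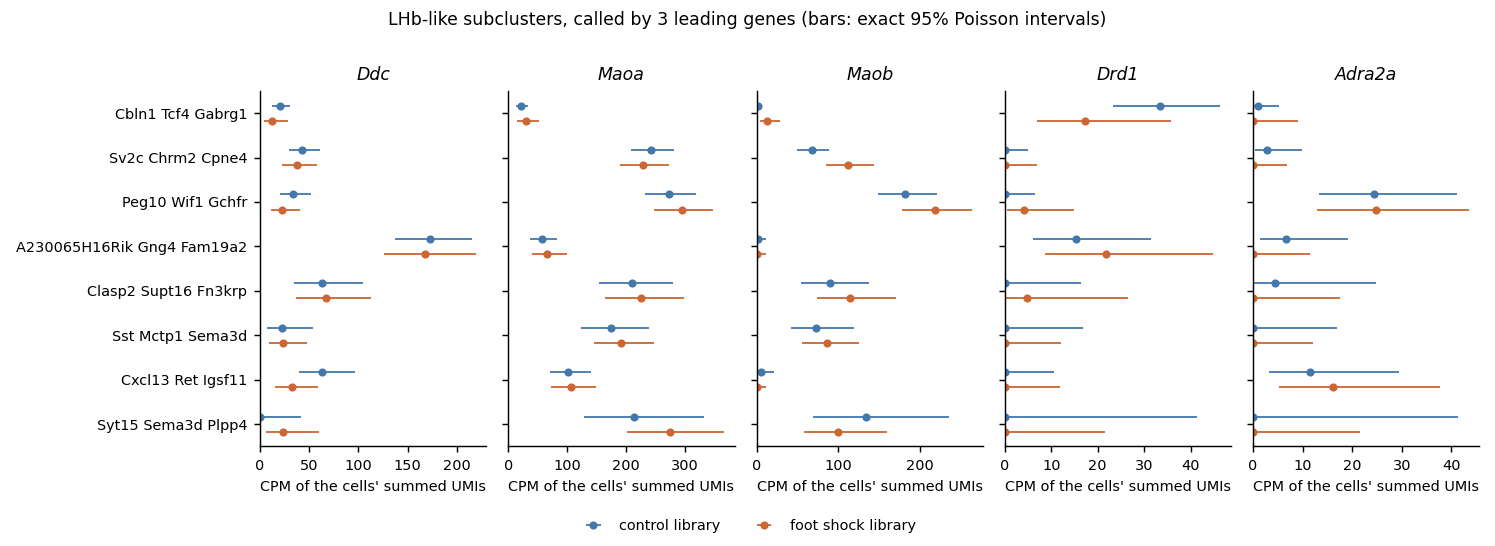
Levels of Ddc, Maoa, Maob, Drd1 and Adra2a in 8 of the 9 LHb-like subclusters, each called by its leading genes, as CPM on linear axes from 0 with exact 95% Poisson intervals. The Gng4-led subcluster stands out for Ddc at 173 and 168 CPM, the Peg10-led for Maob and Adra2a, and the Cbln1-led for Drd1 at 33.4 CPM in control.

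Counted per cell, all but 1 of the Ddc-positive LHb-like neurons had no UMI of either other gene of the chain. Of 159 Ddc-positive cells in control, 159 had no UMI of Th or Slc18a2, a share of 100% (97.7 to 100%), and in foot shock 101 of 102 had none (99.0%, 94.7 to 100%), the exception being 1 cell with a Th UMI. Th and Slc18a2 were rare in the class as a whole, and Ddc-negative LHb-like neurons lacked both in 98.9% of control and 98.0% of foot shock cells. The absence was thus not particular to cells with Ddc. Ddc-positive cells were deeper than Ddc-negative ones, with medians of 5436 against 3979 UMIs in control and 4297.5 against 3599 in foot shock. Most positive cells had a single Ddc UMI, and 43 and 25 had at least 2, with a highest count of 4 in either library.

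Over all named cells, 256 control and 180 foot shock cells had a Ddc UMI, 75 and 90 a Th UMI and 4 and 10 an Slc18a2 UMI. Ddc and Th met in 1 and 4 cells. Slc18a2 met neither Ddc nor Th in any cell of either library, and 0 cells had all 3. With only 4 and 10 Slc18a2 cells a meeting would be rare in any case, so no conclusion is drawn from these zeros. Markers of monoaminergic neurons were low in LHb-like neurons, with 6.58 and 2.02 CPM summed over 7 genes, most of it Slc6a3 (22 and 4 UMIs), and Dbh and Slc6a4 at 0 in both libraries. The Ddc-rich Gng4-led subcluster held 10 and 3 of the Slc6a3 UMIs, 21.9 CPM (10.5 to 40.3) and 9.32 CPM (1.92 to 27.2). Of 7 markers of pinealocytes, the serotonin- and melatonin-making cells of the neighbouring pineal gland, 5 were at 0 in LHb-like neurons in both libraries. Gch1, which makes the first step of the cofactor that Th needs, had 3 UMIs in LHb-like neurons of each library. Tph1, Hdc and the trace amine receptor Taar1 had 0 there in both libraries.

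Among the Ddc-positive LHb-like neurons, the vesicular glutamate transporter Slc17a6 stood at 530 CPM (484 to 580) against 475 CPM (451 to 500) in Ddc-negative cells of control, and at 502 against 507 CPM in foot shock. Gad1, Slc32a1 and Chat were at 0 in Ddc-positive cells of both libraries, while Gad2 stood at 35.6 against 53.7 CPM and 43.7 against 44.2 CPM. Their main transmitter gene on this list was thus Slc17a6, as in Ddc-negative cells. Maob was lower in positive than in negative cells, at 23.4 CPM (14.5 to 35.7) against 60.9 CPM (52.5 to 70.4) in control and 18.4 CPM (7.95 to 36.3) against 90.7 CPM (79.4 to 103) in foot shock. In both libraries the intervals did not overlap. In the Gng4-led subcluster Maob was near 0 with or without Ddc, 1 UMI in 103 control and 0 in 75 foot shock cells. Outside it the gap was smaller and had the same direction, 33.4 against 64.6 CPM in control and 28.3 against 97.2 CPM in foot shock. For Maoa the intervals overlapped, at 122 CPM (101 to 147) against 141 CPM (128 to 155) in control and 138 (105 to 178) against 174 CPM (158 to 191) in foot shock. Adcyap1, the gene of the peptide PACAP, was lower in Ddc-positive cells, at 32.3 CPM (21.6 to 46.3) against 102 CPM (91.2 to 114) in control. In foot shock it stood at 53.0 CPM (33.6 to 79.5) against 84.4 CPM (73.5 to 96.5), and these intervals overlapped. In the Gng4-led subcluster Adcyap1 was low with or without Ddc, 7.4 and 21.4 CPM in control and 13.2 and 35.3 CPM in foot shock. Outside it Adcyap1 stood at 42.9 CPM (28.3 to 62.4) against 107.5 CPM (95.8 to 120.2) in control. In foot shock the values outside were 74.4 CPM (46.0 to 113.7) against 87.9 CPM (76.4 to 100.7), with overlapping intervals. The subclusters outside the Gng4-led one also differed in Ddc, Maob and Adcyap1. How far the Maob and Adcyap1 contrasts between Ddc-positive and Ddc-negative cells come from subcluster makeup was not tested. These values describe cells of 1 library each, and the classes share RNA from the same animals.

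**Figure D3:**
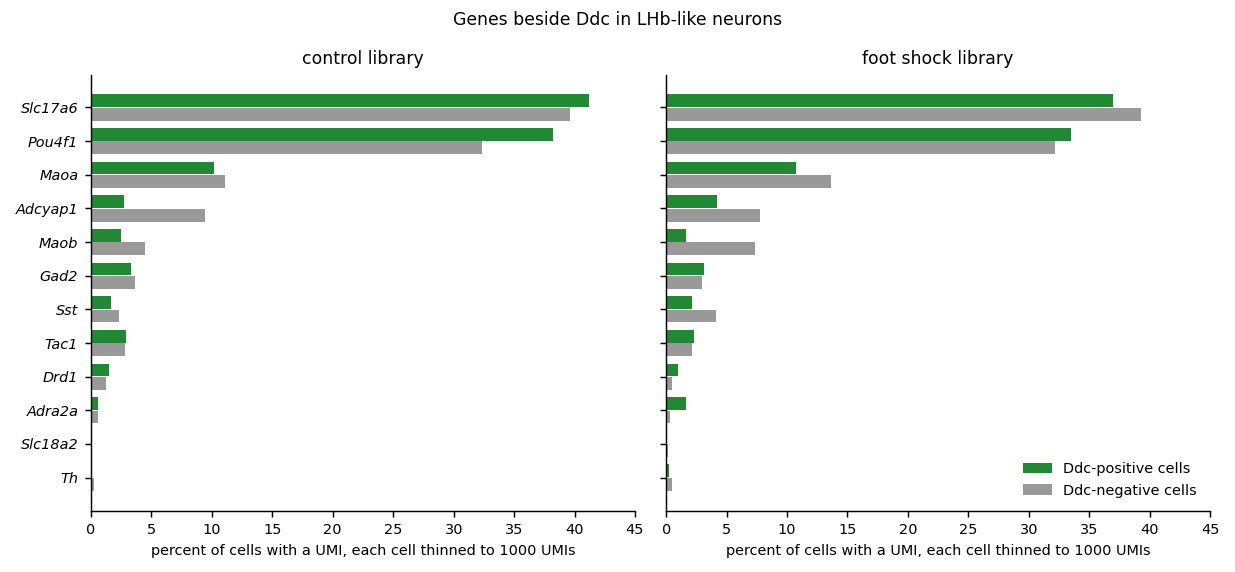
Share of LHb-like neurons with a UMI of 12 genes, with each cell thinned to 1000 UMIs, in Ddc-positive (green) and Ddc-negative (grey) cells, for each library on an axis that starts at 0. Slc17a6 is alike in both kinds of cell, the bars of Maob and Adcyap1 are shorter in Ddc-positive cells in both libraries, and Slc18a2 and Th are at or near 0.

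Th was mainly found in MHb-like neurons and in a single LHb-like subcluster. MHb-like neurons held 83 UMIs in 65 of 1205 control cells and 86 UMIs in 73 of 1616 foot shock cells, 16.6 CPM (13.2 to 20.5) and 15.3 CPM (12.3 to 19.0), with free RNA at 4.44 and 6.22 CPM. LHb-like neurons held 12 UMIs in each library, 3.04 and 4.04 CPM, of which the Sst-led subcluster held 10 and 8. That subcluster stood at 45.7 CPM (21.9 to 84.1) and 26.4 CPM (11.4 to 52.1), with a Th UMI in 10% and 8.99% of cells, so its level was in the range of the highest MHb-like subclusters. Astrocyte-like cells held 0 in control and 3 in foot shock, all in 1 cell. Within the MHb-like class the subcluster led by Calcrl, Gpr4 and Agt had 42.4 CPM (29.0 to 59.8) and 34.3 CPM (24.4 to 46.9), with a Th UMI in 13.7% and 11.4% of cells. Those led by Abhd2 (36.1 and 33.7 CPM), Lmo1 (22.4 and 29.8 CPM) and Sema3d (20.1 and 28.8 CPM) followed, and their intervals overlapped that of the Calcrl-led subcluster in both libraries. Subclusters led by Fgf1 and Clasp2 held 0 Th UMIs in both libraries, with upper bounds of 3.64 and 2.99 CPM for the Fgf1-led and 12.9 and 14.1 CPM for the Clasp2-led, and the Car2-led held 0 and 1. The Slc18a3-led also held 0, but with 37 and 23 cells its upper bounds were 77.7 and 122 CPM, so a level like the Calcrl-led was not excluded at this depth.

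Th-positive MHb-like neurons had less of the cholinergic and glutamatergic transporter genes than the other MHb-like neurons. The choline transporter gene Slc5a7 stood at 141 CPM (100 to 191) against 451 CPM (432 to 470) in control and at 123 against 447 CPM in foot shock. The vesicular glutamate transporter gene Slc17a7 stood at 281 CPM (223 to 350) against 560 CPM (539 to 582) and at 306 against 571 CPM. The shares of cells with an Slc17a7 UMI were closer, 70.8% against 71.8% in control and 61.6% against 68.5% in foot shock. Ddc was found in 1 of 65 and 3 of 73 Th-positive cells, Gad1 and Slc32a1 in 0. Maoa was higher in Th-positive cells, 179 CPM (133 to 236) against 125 CPM (115 to 136) in control and 204 (155 to 264) against 136 CPM in foot shock. In control these Maoa intervals overlapped. Th was nearly absent from the Fgf1-, Car2- and Clasp2-led subclusters, which were also low for Maoa. How far the contrasts between Th-positive and other cells come from subcluster makeup was not tested. Slc18a2 had 4 and 11 UMIs in all named cells, spread over LHb-like (2 and 4), MHb-like (2 and 4), other neurons (0 and 2) and mural-like cells (0 and 1), with free RNA at 0.555 and 1.04 CPM. Neither Th-positive MHb-like nor Ddc-positive LHb-like neurons thus held another gene of the chain beyond 3 cells of a library.

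**Figure D4:**
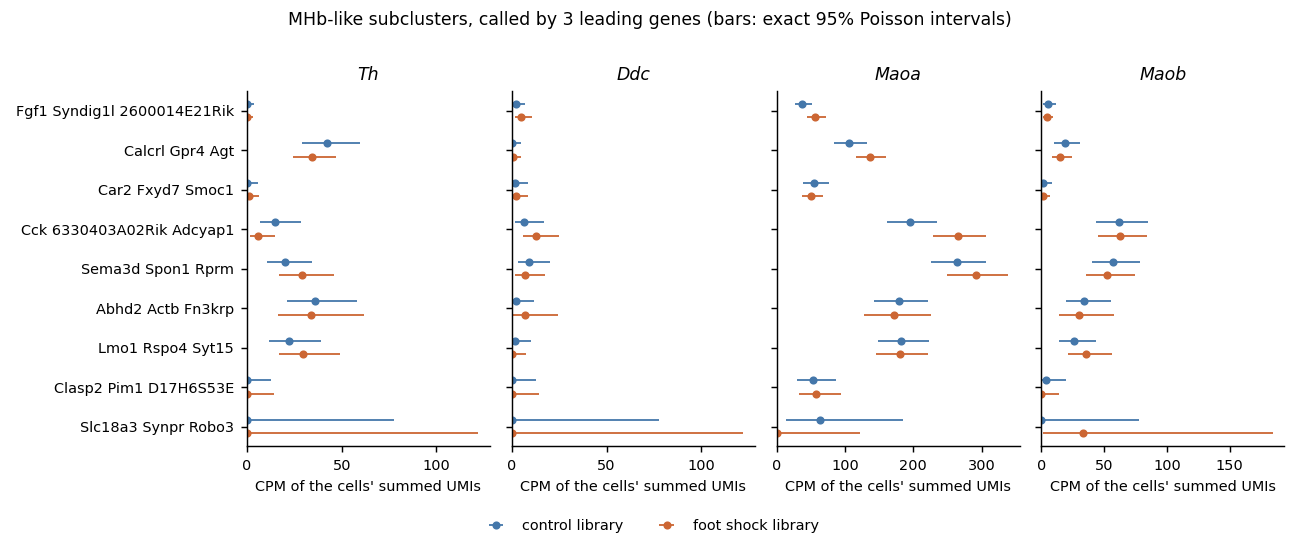
Levels of Th, Ddc, Maoa and Maob in the 9 MHb-like subclusters, each called by its leading genes, as CPM on linear axes from 0 with exact 95% Poisson intervals. Th and Maoa are low in the Fgf1-, Car2- and Clasp2-led subclusters in both libraries, and the Calcrl-led subcluster has the highest control Th level, 42.4 CPM.

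Maoa was found in both habenula classes, at levels whose intervals overlapped in control and not in foot shock, where LHb-like neurons were higher. LHb-like neurons held 539 and 500 UMIs, 136 CPM (125 to 148) and 168 CPM (154 to 184), in 34.8% and 36.4% of cells. MHb-like neurons held 642 and 782 UMIs, 128 CPM (118 to 138) and 140 CPM (130 to 150), in 37.9% and 33.7% of cells. Thalamus-like neurons (97.2 and 143 CPM) and endothelial-like cells (115 and 127 CPM) had intervals that overlapped those of LHb-like neurons in foot shock. The level in astrocyte-like cells, 59.2 and 47.9 CPM, did not exceed free RNA, which held Maoa at 61.8 and 64.8 CPM, and oligodendrocyte-like cells were lower (25.2 and 29.3 CPM). Subclusters differed more than classes. In the LHb-like class the Peg10-led (273 and 295 CPM), Sv2c-led (243 and 229 CPM), Syt15-led (213 and 275 CPM) and Clasp2-led (210 and 225 CPM) subclusters were high, and the Gng4-led (56.9 and 65.2 CPM) and Cbln1-led (21.9 and 29.7 CPM) were low. In the MHb-like class the Sema3d-led subcluster had 264 and 291 CPM, the Cck-led 196 and 265 CPM, and the Car2-led 54.8 and 51.0 CPM. The highest and lowest subclusters of either class did not overlap in either library.

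Maob, which in the brain is best known from astrocytes and serotonin neurons, was highest in thalamus-like neurons. These held 294 and 115 UMIs, 381 CPM (339 to 427) in control and 434 CPM (358 to 521) in foot shock, in 48.5% and 53.4% of cells. LHb-like neurons held 207 and 238 UMIs, 52.4 CPM (45.5 to 60.0) and 80.1 CPM (70.3 to 91.0), and MHb-like neurons 125 in each library, 24.9 and 22.3 CPM, below free RNA at 29.7 and 30.6 CPM. Astrocyte-like cells stood at 61.9 CPM (45.3 to 82.6) and 43.9 CPM (21.9 to 78.6). Within the LHb-like class Maob split the subclusters. The Peg10-led subcluster had 182 and 218 CPM, the Syt15-, Clasp2-, Sst- and Sv2c-led had 67.6 to 135 CPM in control and 85.9 to 115 CPM in foot shock, and the Gng4-, Cxcl13- and Cbln1-led had 1.91 to 5.77 CPM in control and 0.0 to 12.4 CPM in foot shock. The Ddc-rich Gng4-led subcluster was thus among those with the lowest levels of both oxidase transcripts. In the MHb-like class Maob followed a like order, with the Cck-led (61.8 and 62.3 CPM) and Sema3d-led (57.1 and 52.5 CPM) subclusters high and the Fgf1-led (4.93 and 4.06 CPM) and Car2-led (1.52 and 1.16 CPM) low.

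The foot shock and control libraries were compared by the ratio of their CPM in each class. A gene counted as measured when both libraries together held 20 or more of its UMIs, and as past the fold with a ratio of 1.5 or more, or of 0.667 or less. In LHb-like neurons 6 of the 9 genes were measured and 2 were past the fold, where 9.96% of 11554 genes were. Maob was higher in foot shock, with a ratio of 1.53 (1.26 to 1.85), and Drd1 lower, with 0.526 (0.281 to 0.942). The ratio was 1.23 (1.09 to 1.40) for Maoa, 0.834 (0.668 to 1.04) for Ddc, 0.870 (0.443 to 1.67) for Adra2a and 1.33 (0.547 to 3.24) for Th. The median log2 ratio was 0.05 over the 6 genes and −0.05 over all 11554.

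Both calls were lost without the Cbln1-led subcluster, high for Drd1 and low for Maob, whose share of the class differed between the libraries. Within it Drd1 itself had a ratio of 0.519 (0.195 to 1.19), close to that of the class, with an interval that held 1. Without it Drd1 had 8 and 10 UMIs, under the 20 needed, and a ratio of 1.41 (0.503 to 4.12), so the direction turned. Without it the Maob ratio was 1.29 (1.06 to 1.56) and the Maoa ratio 1.07 (0.943 to 1.21), and neither was past the fold. With each subcluster weighted by its control share, the ratios were 0.734 for Drd1, 1.32 for Maob and 1.06 for Maoa. Within subclusters the Maob ratio was 1.2 (0.905 to 1.59) in the Peg10-led, 1.66 (1.12 to 2.47) in the Sv2c-led, 1.28 (0.679 to 2.45) in the Clasp2-led and 1.17 (0.606 to 2.34) in the Sst-led, and 0.740 (0.333 to 1.70) in the Syt15-led. Ddc within the Gng4-led subcluster had a ratio of 0.97 (0.673 to 1.39), and the ratio was 0.509 (0.215 to 1.12) in the Cxcl13-led, with an interval that held 1. Without the Cbln1-led subcluster the Ddc ratio of the class was 0.756 (0.601 to 0.948).

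In MHb-like neurons 4 of the 9 genes were measured and 0 were past the fold, where 7.73% of 11755 genes were. The ratios were 0.927 (0.677 to 1.27) for Th, 1.09 (0.98 to 1.21) for Maoa, 0.894 (0.692 to 1.16) for Maob and 1.43 (0.721 to 2.93) for Ddc. The Cck-led subcluster had a Maoa ratio of 1.36 (1.07 to 1.72) and the Fgf1-led 1.52 (1.01 to 2.31), while the Lmo1-led stood at 0.990 (0.736 to 1.33). In astrocyte-like cells 1 of 3 measured genes was past the fold, where 34.3% of genes were. Adra2a had a ratio of 0.539 (0.245 to 1.07), from 10 UMIs in 163 foot shock cells. In oligodendrocyte-like cells 0 of 2 was past the fold (20.5% of genes), with Ddc at 0.736 (0.457 to 1.17), and in committed precursor-like cells 0 of 1 (29.4%).

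Other neurons had 3 of 3 measured genes past the fold, all higher in foot shock, where 15.3% of genes were past it. Maoa had 71 UMIs in each library and a ratio of 1.63 (1.16 to 2.30), Maob 18 and 19 UMIs and 1.72 (0.854 to 3.47), and Ddc 10 and 11 UMIs and 1.79 (0.691 to 4.70). These neurons are those left after the habenula, thalamus and GABAergic names were given, and whether their makeup differed between the libraries was not tested. Thalamus-like neurons had 0 of 2 past the fold (22.1% of genes), with Maoa at 1.48 (0.971 to 2.21), and oligodendrocyte precursor-like cells had 1 of 1 (33.6%), Maoa at 1.96 (0.923 to 4.22).

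**Figure D5:**
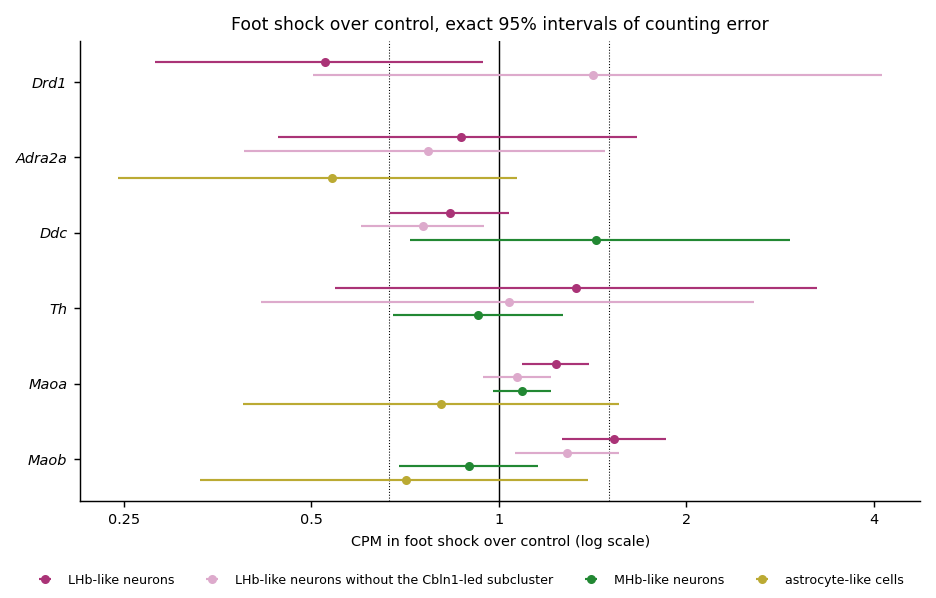
Ratio of foot shock to control CPM for 6 genes on a log axis, in LHb-like neurons with and without the Cbln1-led subcluster, MHb-like neurons and astrocyte-like cells, with exact 95% intervals of counting error, a solid line at 1 and dotted lines at the fold limits of 1.5 and 0.667. Leaving out the Cbln1-led subcluster moves Drd1 from 0.526 to 1.41 and Maob from 1.53 to 1.29.

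The wider pathway was followed in 8 lists of 41 further genes. In LHb-like neurons 22 of the 41 were measured, 0 were past the fold upwards and 3 downwards, a share to be read against the 9.96% of all genes past it in this class. Drd5 had a ratio of 0.578 (0.246 to 1.26) and Adra2c, an inhibitory adrenoceptor, 0.319 (0.107 to 0.797) from 25 and 6 UMIs. Slc6a3, the plasma membrane dopamine transporter, had 22 and 4 UMIs and a ratio of 0.242 (0.0606 to 0.712), and the Gng4-led subcluster, highest for Ddc, held 10 and 3 of these UMIs and the Cxcl13-led 6 and 1. Its ratio without the Cbln1-led subcluster was 0.206 (0.0515 to 0.606). Of the degradation list, Hnmt (25.3 and 26.9 CPM) and Aldh2 (20.8 and 25.6 CPM) were measured and neither was past the fold. Of the cofactor list, Pts, Spr, Qdpr and Pcbd1 were measured, with ratios of 0.969 to 1.37. The polyspecific monoamine transporter gene Slc29a4 stood at 24.3 and 32.3 CPM and the adrenoceptor gene Adrb1 at 24.6 and 22.9 CPM.

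In MHb-like neurons 19 of the 41 genes were measured, with 1 past the fold upwards (Adcy5, 7 and 16 UMIs) and 1 downwards (Adra2c, 21 and 10 UMIs), where 7.73% of all genes were past it. Ppp1r1b, which encodes the dopamine-regulated phosphoprotein DARPP-32, stood at 118 and 131 CPM in MHb-like neurons, where no Drd1 or Drd2 UMI was found, and at 3.29 and 4.71 CPM in LHb-like neurons. Gnal, the olfactory and striatal form of the stimulatory G protein, was found in both classes, at 230 and 219 CPM in MHb-like and 147 and 128 CPM in LHb-like neurons. In astrocyte-like cells 10 of the 41 were measured, with 1 past the fold upwards and 3 downwards, where 34.3% of all genes were past it. The gene past it upwards was Qdpr, with a ratio of 4.68 (3.07 to 7.23). Qdpr recycles the cofactor of Th and stood at 1229 and 1301 CPM in oligodendrocyte-like cells, and the part of carried-over oligodendrocyte RNA in the astrocyte-like value was not tested.

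By Pearson correlation of log2(CPM + 10) over 26 classes and subclusters, among 11991 genes, Ddc was most like Dmrtb1 (r = 0.82), Tmem163 (0.802) and Nacad (0.79). Th was most like Nxph4 (0.892), Gm14137 (0.885) and Syt15 (0.872), and Maoa was most like Ak8 (0.861), 2410015M20Rik (0.842) and Gpr151 (0.841). For Maob the leading genes were Gabra4 (0.739), Lrrk2 (0.736) and Maoa itself (0.728), and for Adra2a they were Ivd (0.832), Dok7 (0.829) and 1700019G17Rik (0.827). The 26 points share cells, since a subcluster lies within its class, and come from the same libraries, so the values are given as a description. Drd1, Drd2, Drd4 and Slc18a2 had too few UMIs for this comparison.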

How the data were processed

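Single cells of 2 habenula libraries, 1 per group, were captured with 10x 3′ v2 chemistry and aligned to mm10. Cell Ranger 2 made the matrices, per the submitters' processing notes, and the deposited values are raw UMI counts of 28692 genes in 737280 barcodes per library. Barcodes with at least 1000 UMIs, 500 to 6000 genes and at most 20% mitochondrial UMIs were kept (5129 and 4840), and Scrublet removed 249 (4.86%) and 69 (1.43%) as doublets. Both libraries were clustered together (scanpy 1.11.5, 2000 variable genes, 30 principal components, 15 neighbours, Leiden resolution 1), with the 9 genes and the 41 pathway genes left out of the features. A cluster was named from 3 or more markers (a marker counted if 10% of cells had it and its level reached 33.3% of the top cluster's), and habenula names also needed Pou4f1. A cluster with more markers of another class than of its own among its 10 leading genes lost its name. Clusters left unnamed held 315 and 210 cells, 480 of them in a cluster with 6 oligodendrocyte markers that was led by Anln, and mixed clusters held 11 and 65. UMIs were summed per class and library. Intervals are exact (Poisson for CPM, Clopper-Pearson for shares, conditional binomial for ratios) at 95%, and cover counting error only. A count of 0 was given an upper limit of 3 counts. Free RNA came from barcodes with 10 to 100 UMIs. The 9 genes were described in each named class with at least 50 cells in a library and in each LHb-like and MHb-like subcluster, and a pathway gene was named where it had at least 20 UMIs in the class. The genes, the lists and the markers were chosen with earlier results of these data known. Scripts used Python 3.11.15 and were tested on simulated data. Results for 1 LHb-like subcluster and for some genes are not reported here.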

Additional observations from a re-analysis of the deposited data

Results flagged for a closer look

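Maob had a ratio of foot shock to control of 1.53 in LHb-like and of 0.894 in MHb-like neurons, values on different sides of 1. The MHb-like interval given above held 1, so no direction is read there. With each subcluster weighted by its control share the MHb-like ratio was 0.98. The difference between the classes was not tested, since each group is 1 library, and the LHb-like ratio was 1.29 without the Cbln1-led subcluster.

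Cells in clusters without a name, which no comparison used, held Ddc at 33.4 CPM (21.8 to 48.9) in control and 32.3 CPM (18.4 to 52.4) in foot shock. These levels come from 26 and 16 UMIs and lie above free RNA at 10.3 and 10.9 CPM. Most of these cells, 480, form a cluster led by Anln, Hapln2 and Pmp22 that holds 6 oligodendrocyte markers, and the oligodendrocyte-like class stood at 33.4 and 24.6 CPM.

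Drd4 stood at 12.2 CPM in the keratin epithelium-like cells of the foot shock library, against 0.259 CPM in its free RNA. It came from 15 UMIs, and control held none of these cells.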

How the results depend on the processing

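The share of Ddc-positive LHb-like neurons without Th or Slc18a2 was 100% in control under each of 14 alternatives and 98.3 to 100% in foot shock. It was 100% there with Ddc counted from 2 UMIs, with cells from 500 UMIs, with a mitochondrial limit of 10% and with each library clustered on its own. Th and Slc18a2 were rare in LHb-like neurons with or without Ddc, so a share near 100% would arise at any of these settings. No conclusion is drawn from its stability.

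The Ddc share itself followed depth. Counted from 2 UMIs it was 4.77% and 3.14%, thinned to 1000 UMIs 4.87% and 4.59%, thinned to 2000 UMIs 10.2% and 7.98%, and in cells from 2000 UMIs 22.6% and 15.6%. In control it was 20.7% with a mitochondrial limit of 10% and 21.8% without the Cbln1-led subcluster.

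In LHb-like neurons the number of the 9 genes past the fold went from 2 to 0 with a fold of 2, to 0 without the Cbln1-led subcluster, to 1 (Drd1) with cells from 2000 UMIs and with each library clustered on its own, and to 4 with no minimum of UMIs. The Drd1 ratio turned from 0.526 to 1.41 without that subcluster, and the Maoa ratio fell from 1.23 to 1.07. In MHb-like neurons the number went from 0 to 2 with no minimum of UMIs, and to 1 (Ddc) with free RNA subtracted, with cells from 2000 UMIs, with a mitochondrial limit of 10% and with each library clustered on its own. The cause of these changes was not tested. Leaving out the subcluster or the shared barcodes, a Pou4f1 limit of 0.5 and another clustering seed were chosen after seeing the data, and the last 3 changed neither count. No paired analysis was possible because each group has 1 library. With 1 library per group, library, pooled animals and treatment cannot be told apart, and genes under 20 UMIs in a class are limited by depth.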
